A study of Homo sapiens with 9 samples.

Results

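MHC class II molecules present peptides from the endocytic pathway to CD4+ T cells. Their genes, with CD74 and CIITA, were followed here in the Hodgkin lymphoma cell line L-1236 after LTA, the gene of the cytokine lymphotoxin alpha, had been targeted with Cas9. The set held 10 genes chosen by symbol, HLA-DRA, HLA-DRB1, HLA-DQA1, HLA-DPA1, HLA-DMA, HLA-DMB, HLA-DOA, HLA-DOB, CD74 and CIITA. Of these, 9 were each named by 1 of the 20893 rows tested, each row being the probe set of 1 transcript cluster, and no row was left out for a low value. HLA-DMB was named by no row in the annotation used and was not analysed here.

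Total RNA was measured on Clariom S arrays in 3 groups of 3. Clone g2_1 was a single clone of L-1236 cells transduced with the lentiCRISPR v2 vector (spelt lentiCRIPSPR_v2 in the labels) and a guide directed to the second LTA exon. Clone g3_4 was a single clone with the same vector and a guide against the fourth exon. The control cells, v2, carried the vector name without a guide name in their description and were titled wild type. The clones had been maintained in medium taken from L-1236 cultures, and before RNA was taken all 3 groups spent 72 h in normal medium. Whether the controls had also been in conditioned medium or were a single-cell clone is not given in the labels. Nor do the labels say that the arrays of a group stand for separate cultures, and the p-values therefore describe a spread between samples that could be only technical. All values below are log2 signals, and differences are log2 differences unless a fold is named.

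LTA itself was at 7.97, 7.53 and 7.11 on the g2_1 arrays, at 6.94, 7.25 and 6.61 on the g3_4 arrays, and at 11.58, 11.07 and 11.08 on the control arrays, so both sets of knockout arrays lay below the controls. Array medians were 6.12 to 6.16 in the clones and 6.24 to 6.25 in the control. The RNA integrity number was 10 on the arrays numbered 1 and 9.5 to 9.6 on the others. No 2 arrays were identical. Of 8 genes known from Hodgkin cells, 3 were higher and 1 lower than control in g2_1, and 1 was higher and 3 lower in g3_4. Of all rows, 6.19% were called higher and 8.06% lower in g2_1, and 6.12% higher and 8.16% lower in g3_4. In both clones at once 4.48% were higher and 6.97% lower, and these shares are the background for the marker lists that follow. TNFRSF8 (CD30) rose in both clones, averaging 11.89 in g2_1, 11.81 in g3_4 and 11.11 in control cells, and the chemokine CCL22 fell in both, averaging 5.06 in g2_1, 5.22 in g3_4 and 6.32 in control cells. CD70 was the 1 gene of the list that passed between the clones, beside 0.0526% of all rows. It averaged 11.43 in g2_1, 9.08 in g3_4 and 10.02 in control cells. Of 6 measured B cell markers, the kinase gene BLK rose in both clones, averaging 10.55 in each and 9.66 in control cells, PAX5 fell in both, averaging 6.52 in g2_1, 6.48 in g3_4 and 7.31 in control cells, and the other 4 did not pass. The call of BLK was lost without some single arrays (g2_1 array 2 or 3 or control array 3 in g2_1, any g3_4 array or control array 3 in g3_4, adjusted p up to 0.0887). Summed over the B cell list, the log2 values ran from 38.37 to 38.58 in g2_1, 38.33 to 39.34 in g3_4 and 38.06 to 39.15 in control cells. Of 4 measured T cell markers CD2 rose in both clones, averaging 9.40 in g2_1, 9.35 in g3_4 and 7.82 in control cells, and CD3D, CD3E and CD3G did not pass. Control array 1 stood low for CD2, at 7.0 against 8.25 and 8.21 on the other controls. The part of these markers in the results below was not tested. Of 5 plasma cell and 4 NK cell markers none passed in g2_1, and 1 of each list was higher in g3_4. JCHAIN averaged 4.71 in g3_4 and 4.12 in control cells, and NCAM1 averaged 5.15 and 4.73. Both calls were lost without some single arrays. NKG7 of the NK cell list averaged 10.88 in g2_1, 10.74 in g3_4 and 10.32 in control cells. None of 6 monocyte and 6 dendritic cell markers passed in either clone. The monocyte markers LYZ and CD14 averaged 4.18 and 5.27 in g2_1, 4.22 and 5.31 in g3_4, and 4.24 and 5.32 in control cells, where the first quartile of all values was 4.63. CSF1R of the same list stood higher, averaging 7.56 in g2_1, 7.3 in g3_4 and 7.51 in control cells. Summed over the monocyte list, the log2 values ran from 31.65 to 31.86 in g2_1, 30.76 to 32.44 in g3_4 and 31.22 to 32.31 in control cells. Over the dendritic cell list they ran from 39.34 to 40.16 in g2_1, 38.96 to 40.11 in g3_4 and 38.83 to 40.24 in control cells. Of that list CCR7, known also from Hodgkin cells, averaged 13.30 in g2_1, 13.22 in g3_4 and 13.26 in control cells. ITGAX averaged 8.30 in g2_1, 8.18 in g3_4 and 8.05 in control cells.

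Each class II molecule is a pair of an alpha and a beta chain from genes on chromosome 6. The new pair binds CD74, the invariant chain, which fills the peptide groove and guides it to endosomes. There proteases cut CD74 down to a short peptide, HLA-DM exchanges that peptide for others, and HLA-DO, found mainly in B cells, inhibits HLA-DM. CIITA, a coactivator that does not itself bind DNA, is recruited to class II promoters by factors on a conserved pair of elements, the X box, bound by the RFX complex and CREB, and the Y box, bound by NF-Y.

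Reference promoters, from 250 bases before to 50 bases after the gene start, were taken from RefSeq (GRCh38.p14) to show what the genes share besides their expression. Of the 10 genes 8 had an entry, and none was held for HLA-DRA and CIITA. The letters AGNNNCNGA were searched as a core of the X box and ATTGG as a core of the Y box, each on both strands. These letters were chosen after looking at the promoters of the set, the motifs cannot overlap in the spacing counted, and the alleles of L-1236 were not read. In 5 of the 8 promoters the X core was followed by the Y core after 23 to 25 bases on 1 strand, which was found in 66 of 35116 promoters (0.188%). That spacing was read from these 5 genes, and over the whole gap searched, up to 50 bases, X then Y was found in 2.83% of promoters. The stretches of those 5 genes are shown because the searched letters matched there as a pair. That of CD74 is shown for contrast because these letters did not, which does not show that it lacks the elements. All are 5′ to 3′ on the gene's strand, with the X core and the Y core in capitals.
HLA-DRB1, chr6:32589878-32589939, minus strand: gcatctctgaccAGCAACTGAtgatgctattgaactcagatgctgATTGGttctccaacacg
HLA-DQA1, chr6:32637292-32637354, plus strand: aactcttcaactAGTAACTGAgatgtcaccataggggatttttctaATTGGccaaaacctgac
HLA-DMA, chr6:32953160-32953222, minus strand: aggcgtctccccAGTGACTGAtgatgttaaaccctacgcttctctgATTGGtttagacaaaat
HLA-DOA, chr6:33009642-33009704, minus strand: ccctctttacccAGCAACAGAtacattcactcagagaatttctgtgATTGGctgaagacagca
HLA-DOB, chr6:32817084-32817144, minus strand: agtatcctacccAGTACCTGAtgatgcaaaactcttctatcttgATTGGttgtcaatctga
CD74, chr5:150412947-150413003, minus strand: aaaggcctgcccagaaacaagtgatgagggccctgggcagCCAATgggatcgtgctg

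In CD74 the Y core stood on the reverse strand, and the X core letters were on neither strand of its whole promoter entry. Only exact matches to the letters were sought. Alone, the X core was in 54.1% and the Y core in 34.6% of all promoters, so a single match is common. The matches describe these windows and are not measured binding sites.

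In clone g2_1 most of the set was lower than in control cells. Against the control, 7 of the 9 genes passed the test in limma at an adjusted p under 0.05, of which 6 were lower and HLA-DOA was higher, beside 8.06% of all rows lower and 6.19% higher. The 6 were HLA-DRA, HLA-DRB1, HLA-DQA1, HLA-DPA1, HLA-DOB and CD74, and CIITA and HLA-DMA did not pass. In 8 of the 9 genes all g2_1 arrays lay below all control arrays, against 13.5% of all rows, and in HLA-DOA they all lay above, against 14.9%. In clone g3_4, 2 of the 9 genes passed against the control, HLA-DOB lower and HLA-DOA higher, beside 8.16% of all rows lower and 6.12% higher. All g3_4 arrays lay below all control arrays for 2 genes, HLA-DQA1 and HLA-DOB, against 14.1% of all rows, and above them for HLA-DOA, against 14.8%. The median difference over the 9 genes was -0.84 in g2_1 and -0.10 in g3_4, and over all rows it was 0.03 in each clone. Both comparisons use the same control arrays. In bulk RNA, fewer cells with a transcript and less of it per cell cannot be told apart.

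**Figure D1:**
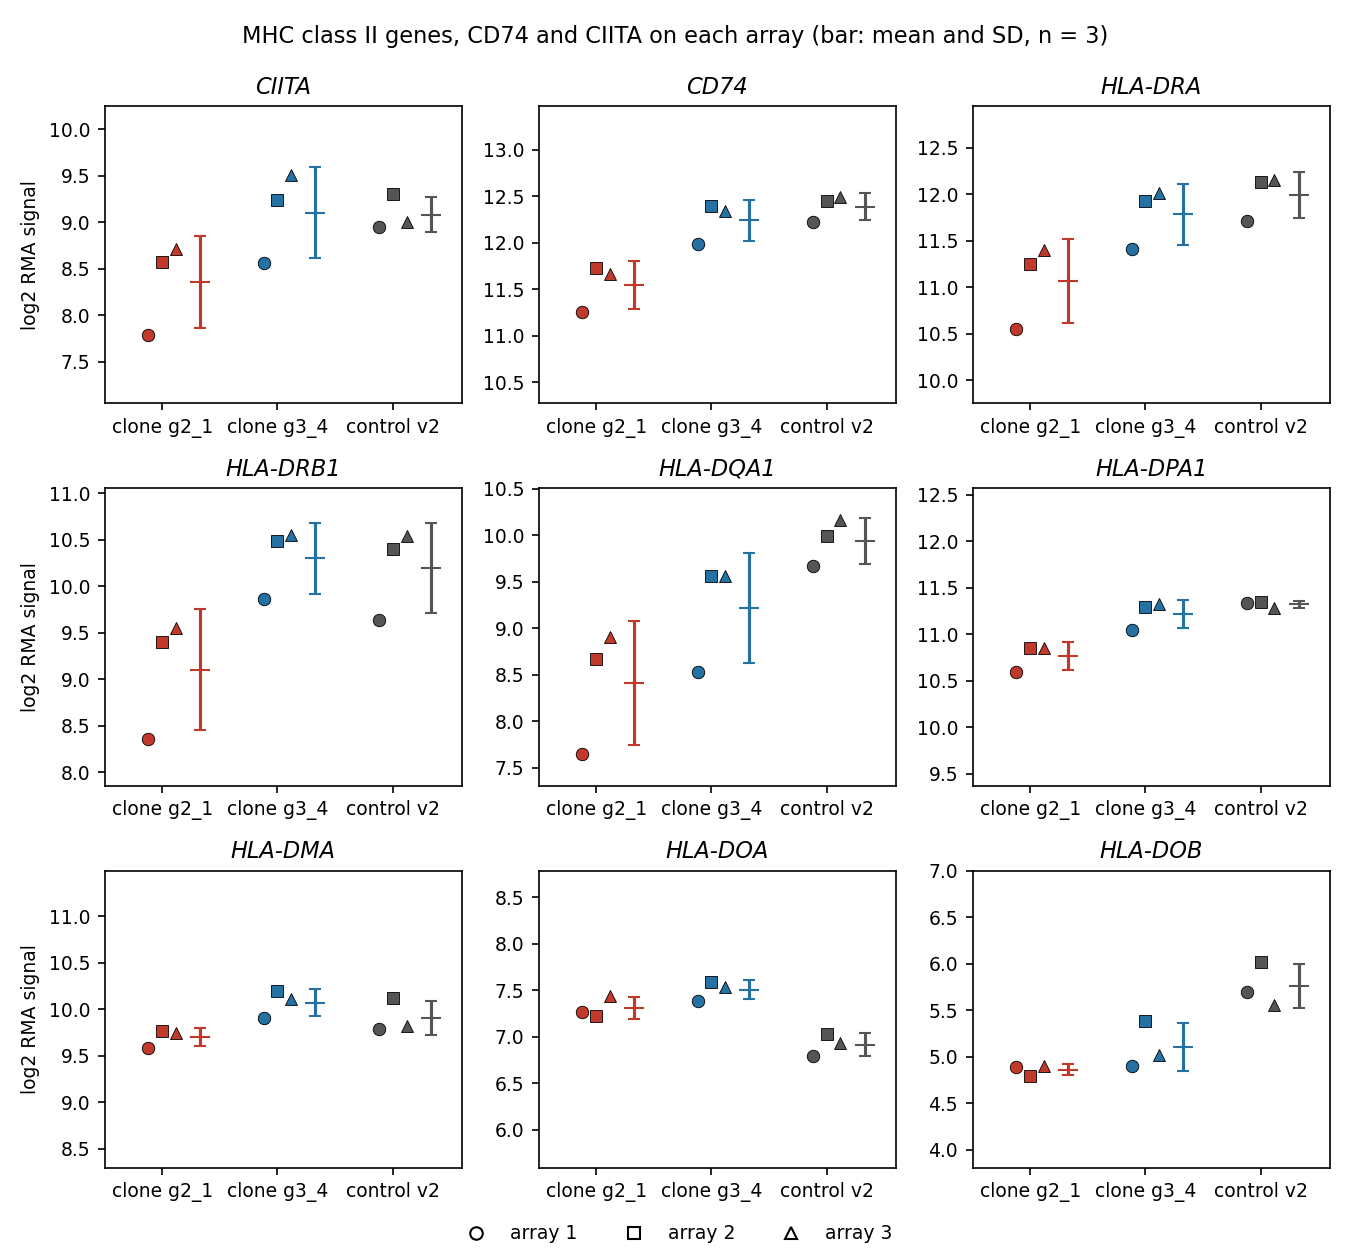
Log2 signal of the 9 measured genes on each array, with clone g2_1 on the left, clone g3_4 in the middle and control v2 on the right of each panel, and a bar with its SD at each group mean. HLA-DOA is the gene with its lowest mean in control cells, and for HLA-DQA1 and HLA-DOB the arrays of both clones lie below all control arrays.

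CIITA, the coactivator on which the expression of the class II genes depends, was at 7.79, 8.57 and 8.71 in g2_1, at 8.56, 9.24 and 9.51 in g3_4, and at 8.95, 9.30 and 9.0 in control cells. The g2_1 arrays were all below the control arrays, while the g3_4 arrays overlapped both other groups. The difference of g2_1 from control was -0.73 (SE 0.27, 95% interval -1.32 to -0.13) and did not pass (adjusted p = 0.107). It passed with the arrays numbered 1 left out (-0.51, adjusted p = 0.0489), and in a limma fit with the array number as a block (adjusted p = 0.0142). The difference of g3_4 from control was 0.02 (95% interval -0.57 to 0.61, adjusted p = 0.978), and its sign changed in 4 of the 9 fits that left out 1 array.

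CD74, the invariant chain, was at 11.25, 11.73 and 11.66 in g2_1, at 11.99, 12.40 and 12.34 in g3_4, and at 12.22, 12.45 and 12.49 in control cells. All g2_1 arrays lay below all arrays of the other 2 groups, and g3_4 overlapped the control. CD74 fell in g2_1 by 0.84 (SE 0.15, adjusted p = 0.0040), which is 1.79-fold lower than in control cells. The difference of g3_4 from control was -0.14 (95% interval -0.48 to 0.20, adjusted p = 0.640).

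HLA-DRA encodes the alpha chain of HLA-DR, which varies little between people. Its values were 10.55, 11.25 and 11.40 in g2_1, 11.41, 11.93 and 12.02 in g3_4, and 11.71, 12.13 and 12.15 in control cells. The g2_1 arrays lay below those of both other groups, the highest of them just under the lowest g3_4 array. HLA-DRA fell in g2_1 by 0.93 (SE 0.23, adjusted p = 0.0208), a 1.91-fold difference. The call was lost without g2_1 array 1 (-0.67, adjusted p = 0.0653), without control array 2 (adjusted p = 0.0716) and without control array 3 (adjusted p = 0.0636). In a limma fit with the array number as a block, it passed (SE 0.10, adjusted p = 0.0003). In g3_4 the difference was -0.21 (95% interval -0.72 to 0.30, adjusted p = 0.649).

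HLA-DRB1, a beta chain of HLA-DR, was at 8.36, 9.40 and 9.55 in g2_1, at 9.86, 10.49 and 10.55 in g3_4, and at 9.64, 10.40 and 10.54 in control cells. The g2_1 arrays were below all others, and g3_4 and control arrays lay in the same range. HLA-DRB1 fell in g2_1 by 1.09 (SE 0.33, adjusted p = 0.0490), 2.13-fold lower than in control cells. This call stood at the threshold in the fit without pairing. There it was lost in 6 of the 9 fits that left out 1 array, namely g2_1 array 1 (-0.72, adjusted p = 0.152) or 2, g3_4 array 2 or 3, or control array 2 or 3. In a limma fit with the array number as a block, the g2_1 difference passed (SE 0.11, adjusted p = 0.0002). The difference of g3_4 was 0.11 (95% interval -0.62 to 0.83, adjusted p = 0.891). DRB genes are near-identical and differ between people, so this probe set may read more than 1 of them, and L-1236 alleles may not match its probes.

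HLA-DQA1, the alpha chain of HLA-DQ, had the largest difference from control of the 9 genes in g2_1. It was at 7.65, 8.67 and 8.90 in g2_1, at 8.53, 9.56 and 9.56 in g3_4, and at 9.67, 9.99 and 10.16 in control cells. All arrays of both clones were below all control arrays, and the clones overlapped each other. HLA-DQA1 fell in g2_1 by 1.53 (SE 0.34, adjusted p = 0.0110), 2.89-fold lower than in control cells. The difference of g3_4 was -0.72 (95% interval -1.47 to 0.02, adjusted p = 0.211), and it passed with the arrays numbered 1 left out (-0.51, adjusted p = 0.0246). It also passed in a limma fit with the array number as a block (adjusted p = 0.0105).

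HLA-DPA1, the alpha chain of HLA-DP, was at 10.59, 10.85 and 10.85 in g2_1, at 11.05, 11.29 and 11.32 in g3_4, and at 11.34, 11.35 and 11.28 in control cells. The g2_1 arrays were below all others, and the g3_4 arrays overlapped the control arrays. HLA-DPA1 fell in g2_1 by 0.56 (SE 0.11, adjusted p = 0.0064), a 1.47-fold difference. In g3_4 the difference was -0.10 (95% interval -0.35 to 0.14, adjusted p = 0.641), and it was 0.0067 after each array was centred on its median.

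HLA-DMA, the alpha chain of the peptide exchanger HLA-DM, was at 9.59, 9.77 and 9.75 in g2_1, at 9.91, 10.20 and 10.11 in g3_4, and at 9.79, 10.12 and 9.82 in control cells. The g2_1 arrays lay just below the control arrays, and g3_4 overlapped the control. Neither difference passed, at -0.21 (SE 0.12, adjusted p = 0.337) in g2_1 and 0.16 (95% interval -0.11 to 0.43, adjusted p = 0.467) in g3_4.

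HLA-DOA and HLA-DOB, the alpha and beta chains of HLA-DO, moved in opposite directions in both clones. HLA-DOA was at 7.27, 7.22 and 7.44 in g2_1, at 7.39, 7.59 and 7.54 in g3_4, and at 6.79, 7.03 and 6.93 in control cells. It rose by 0.39 in g2_1 (SE 0.11, adjusted p = 0.0324, 1.31-fold) and by 0.59 in g3_4 (SE 0.11, adjusted p = 0.0037, 1.51-fold), with all clone arrays above all control arrays. The call in g2_1 was lost without any 1 of the 3 g2_1 arrays, without g3_4 array 3 and without control array 1 or 3 (adjusted p 0.0506 to 0.124), whereas the call in g3_4 was kept in all 19 alternatives.

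HLA-DOB was at 4.89, 4.79 and 4.90 in g2_1, at 4.90, 5.39 and 5.02 in g3_4, and at 5.70, 6.02 and 5.56 in control cells. All clone arrays lay below all control arrays and near the first quartile of all values, 4.63, so the floor of the array limits how large the difference can be. HLA-DOB fell by 0.90 in g2_1 (SE 0.15, adjusted p = 0.0020, 1.87-fold lower) and by 0.66 in g3_4 (SE 0.15, adjusted p = 0.0131, 1.58-fold lower). In g3_4 the call was lost without g3_4 array 1 (adjusted p = 0.0571) or array 3 (adjusted p = 0.0539) and with the arrays numbered 1 left out (-0.58, adjusted p = 0.0644).

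**Figure D2:**
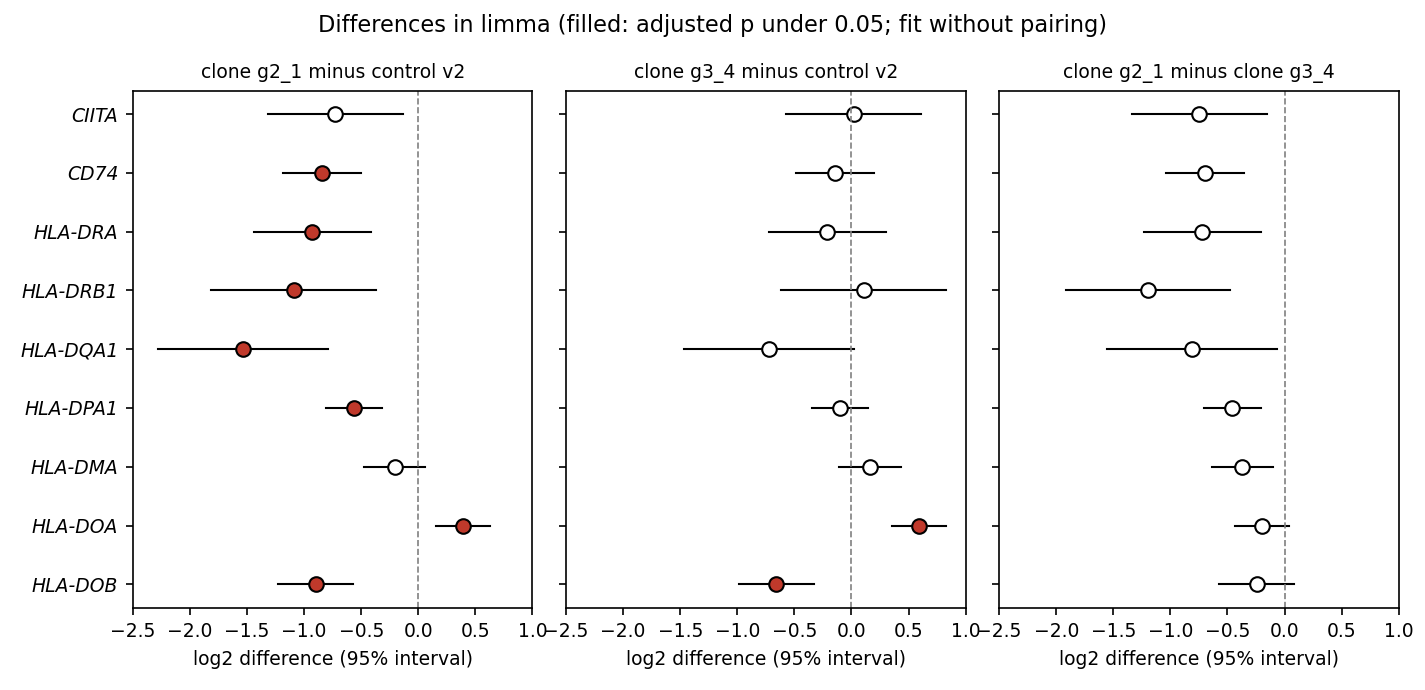
Log2 difference of each measured gene with its 95% interval, for clone g2_1 against control v2, clone g3_4 against control v2, and clone g2_1 against clone g3_4, with filled points where the adjusted p was under 0.05. In the fit drawn, without pairing, HLA-DRA, HLA-DRB1, HLA-DQA1, HLA-DPA1 and CD74 were called in g2_1 and had intervals that include 0 in g3_4. HLA-DOA and HLA-DOB were called in both.

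With the mean of both clones set against the control, 5 of the 9 genes passed, 4 lower and 1 higher, beside 9.83% of all rows lower and 8.13% higher. These were HLA-DQA1 at -1.13 (adjusted p = 0.0206), HLA-DOB at -0.78 (adjusted p = 0.0016), CD74 at -0.49 (adjusted p = 0.0264), HLA-DPA1 at -0.33 (adjusted p = 0.0364) and HLA-DOA at 0.49 (adjusted p = 0.0036). HLA-DRA at -0.57, HLA-DRB1 at -0.49, CIITA at -0.35 and HLA-DMA at -0.02 did not pass. HLA-DRA passed without control array 1 (-0.71, adjusted p = 0.0421), and with the arrays numbered 1 left out HLA-DRA (-0.49, adjusted p = 0.0075) and HLA-DRB1 (-0.47, adjusted p = 0.0106) passed. Without control array 2 or control array 3 the count was 2, since HLA-DQA1, CD74 and HLA-DPA1 no longer passed. HLA-DPA1 was also lost without g2_1 array 1, g3_4 array 1 or 2, or control array 1 (adjusted p up to 0.072).

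That a gene passed in g2_1 and not in g3_4 does not show that the clones differ, so clone was also set against clone. Without pairing, 0 of the 9 genes passed between g2_1 and g3_4 in limma, beside 11 of all 20893 rows (0.0526%), and 7 of the 9 had an unadjusted p under 0.05, beside 2.13% of all rows that were lower at that p. All g2_1 arrays lay below all g3_4 arrays for 5 of the 9 genes, HLA-DRA, HLA-DRB1, HLA-DPA1, HLA-DMA and CD74, beside 5.55% of all rows. Arrays of the same number deviated together in the clones, so the number was also used as a block in the fit of all 3 groups. With the block 3 of the 9 genes passed, all lower in g2_1, beside 0.0766% of all rows. HLA-DRB1 fell in g2_1 relative to g3_4 by 1.20 (SE 0.11, 95% interval -1.45 to -0.95, adjusted p = 0.0042). HLA-DRA was lower by a difference of -0.72 (SE 0.10, 95% interval -0.95 to -0.49, adjusted p = 0.0456), and CD74 by -0.70 (SE 0.09, 95% interval -0.90 to -0.49, adjusted p = 0.0337).

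The other 6 genes did not pass with the block. CIITA was at -0.75 (adjusted p = 0.249), HLA-DQA1 at -0.81 (adjusted p = 0.147) and HLA-DPA1 at -0.46 (adjusted p = 0.242). HLA-DMA was at -0.37, HLA-DOB at -0.24 and HLA-DOA at -0.20. In a fit of the 2 clones alone with the block, added after the data were seen, CIITA (adjusted p = 0.0349) and HLA-DQA1 (adjusted p = 0.0395) passed as well as HLA-DRA, HLA-DRB1 and CD74.

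The g2_1 mean was the lowest of the 3 for 8 of the 9 genes, beside 26.1% of all rows, and HLA-DOA had its lowest mean in control cells. In 9 of 9 genes the g2_1 array lay below the g3_4 array on each of the 3 array numbers, beside 15.4% of all rows. For CD74 these differences ran from -0.74 to -0.67, for CIITA from -0.80 to -0.67 and for HLA-DPA1 from -0.47 to -0.44. They were wider for HLA-DRB1, from -1.50 to -1.0, and for HLA-DOB, from -0.60 to -0.01. The 9 genes were read from the same arrays, so these are not 9 independent observations. HLA-DRB1 and HLA-DMA had g3_4 means above the control mean without passing, and neighbouring groups in the order did not differ beyond their spread for g3_4 and control in CIITA, CD74, HLA-DRA, HLA-DRB1, HLA-DPA1 and HLA-DMA, whose arrays overlapped.

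**Figure D3:**
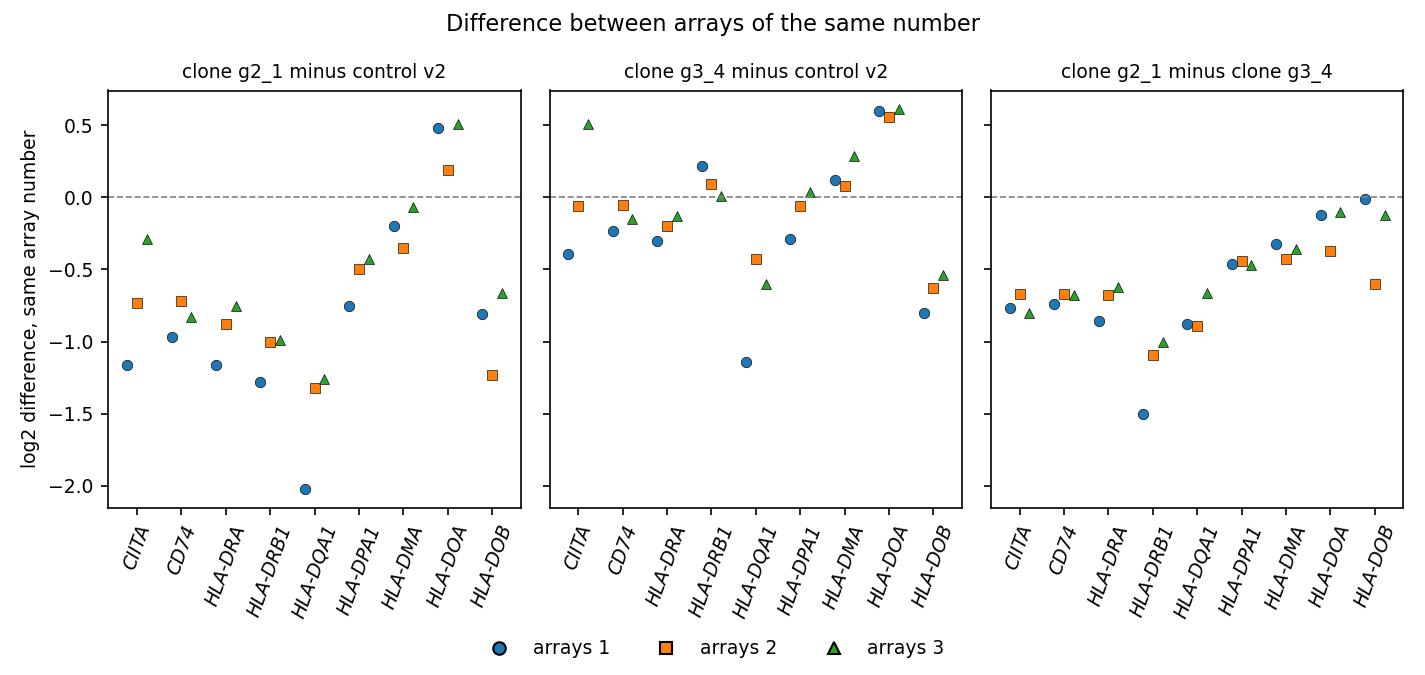
Log2 difference between arrays of the same number for each measured gene, g2_1 minus control v2, g3_4 minus control v2 and g2_1 minus g3_4, with a symbol for each array number. All points of g2_1 minus g3_4 are below 0, with the HLA-DOB difference of arrays 1 at -0.01.

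The arrays numbered 1 stood low for the set. Array 1 was the lowest of its group for 7 of 9 genes in g2_1, 9 of 9 in g3_4 and 7 of 9 in control cells, and it was the lowest in all 3 groups for 6 of 9 genes, beside 10.1% of all rows. The mean of arrays 2 and 3 exceeded array 1 for HLA-DQA1 by 1.14 in g2_1, 1.03 in g3_4 and 0.40 in control cells, and for CIITA by 0.85 in g2_1, 0.82 in g3_4 and 0.20 in control cells. The array numbered 1 also had the highest RNA integrity number of each group. Its part in these values was not tested. With the arrays numbered 1 left out, the g2_1 differences of HLA-DQA1, HLA-DPA1, HLA-DOB and CD74 still passed, and so did those of HLA-DRA and HLA-DRB1, while HLA-DOA no longer passed (0.35, adjusted p = 0.0878).

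Other class II chains were read from 3 further named rows. HLA-DQB1, the beta chain of HLA-DQ, was at 7.13, 7.62 and 7.62 in g2_1, at 7.90, 8.23 and 8.49 in g3_4, and at 8.08, 8.28 and 8.36 in control cells. It fell in g2_1 by 0.78 (SE 0.17, adjusted p = 0.0115), and its difference in g3_4 was -0.03. HLA-DPB1, the beta chain of HLA-DP, was at 9.48, 9.91 and 9.97 in g2_1, at 10.26, 10.44 and 10.56 in g3_4, and at 10.37, 10.46 and 10.56 in control cells. It fell in g2_1 by 0.68 (SE 0.14, adjusted p = 0.0079), and its difference in g3_4 was -0.04. HLA-DRB5, another DR beta chain that differs between haplotypes, did not pass, at -0.33 in g2_1 and 0.28 in g3_4. Between the clones with the array number as a block, HLA-DQB1 passed at -0.75 (adjusted p = 0.0367), and HLA-DPB1 at -0.63 (adjusted p = 0.0637) and HLA-DRB5 at -0.61 (adjusted p = 0.0760) did not. For each of the 3 genes all g2_1 arrays lay below all g3_4 arrays, beside 5.55% of all rows. Of all rows, 8.06% were called lower in g2_1 than in control, and 0.0766% lower than in g3_4 with the block. HLA-DRB3, HLA-DRB4, HLA-DQA2, HLA-DQB2 and HLA-DPB2 were named by no row and were not analysed here.

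For the 7 genes of the set that passed in any comparison, the rows with the most similar pattern over the 9 arrays were sought, by the root mean square difference of log2 values centred on each row's mean. Outside the set, the nearest named row to CD74 was HLA-DQB1 at 0.0933, followed by HLA-DPB1 at 0.0991 and ZSCAN9 at 0.143. The same 3 rows were nearest to HLA-DRA, with HLA-DQB1 at 0.136, ZSCAN9 at 0.162 and HLA-DPB1 at 0.183. HLA-DQB1 was also nearest to HLA-DRB1 at 0.310, before CNTNAP3P2 at 0.338 and SAMSN1 at 0.339. For HLA-DPA1 the nearest were GEN1 at 0.0759, HLA-DPB1 at 0.112 and TMEM18 at 0.113.

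Class II rows were not the nearest to every gene. HLA-DQA1 was nearest to IL6ST at 0.330, OGT at 0.353 and RAB39B at 0.353, yet nearer still to HLA-DRA at 0.314. HLA-DOB was nearest to LPAR3 at 0.124, SLC22A5 at 0.126 and UBAP1 at 0.137, and HLA-DOA to ULK3 at 0.0761, CCDC150 at 0.0768 and RAPGEF2 at 0.0769. For HLA-DOA the nearest gene of the set, HLA-DMA at 0.265, stood at rank 7178 among all rows, and for HLA-DOB it was HLA-DPA1 at rank 798. Patterns that vary little lie nearer to one another by this measure.

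Of 7 genes for factors that bind the X and Y boxes, 1 was lower in both clones, NFYA, a subunit of NF-Y, beside 6.97% of all rows lower and 4.48% higher in both. It was at 7.88, 7.78 and 8.01 in g2_1, at 7.94, 7.69 and 8.22 in g3_4, and at 8.57, 8.70 and 8.41 in control cells. NFYA fell by 0.67 in g2_1 (adjusted p = 0.0085) and by 0.61 in g3_4 (adjusted p = 0.0140), and the call in g3_4 was lost without g3_4 array 2 or control array 2 (adjusted p up to 0.059). The other subunits NFYB and NFYC, the RFX subunits RFX5, RFXAP and RFXANK, and CREB1 did not pass. RFXAP was at -0.51 in g2_1 and -0.64 in g3_4, RFX5 at -0.05 and 0.18, and CREB1 at 0.34 and 0.27. None of the 7 passed between the clones without the block, and 0 of the 9 genes of the set passed in that fit either.

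Of 27 measured genes that regulate CIITA or act on its promoters and cofactors, 1 rose and 5 fell in both clones, with the same 4.48% and 6.97% of all rows as background for this list and those that follow. EBF1, a B cell transcription factor, rose by 1.27 in g2_1 and 1.22 in g3_4, calls lost in each clone without any 1 of its own arrays (adjusted p up to 0.095). Its control arrays were spread, at 6.4, 7.45 and 8.0, with array 1 the lowest. JAK2, a kinase of the interferon gamma receptor, fell in both, with differences of -2.73 in g2_1 and -2.68 in g3_4. IRF1, which binds the interferon-inducible CIITA promoter, was lower (-0.97 in g2_1 and -0.60 in g3_4). PAX5, the B cell identity factor, was lower (-0.79 in g2_1 and -0.83 in g3_4), and ZXDC, a cofactor of CIITA, was lower (-0.87 in g2_1 and -0.72 in g3_4). The list had a median difference between the clones of 0.00, beside -0.70 for the 9 genes of the set. Without the block 0 of its 27 genes passed between the clones, and 0 of the 9 genes of the set passed in that fit either. The fit with the block is not reported for this list. The part of these genes in the differences of the set was not tested.

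**Figure D4:**
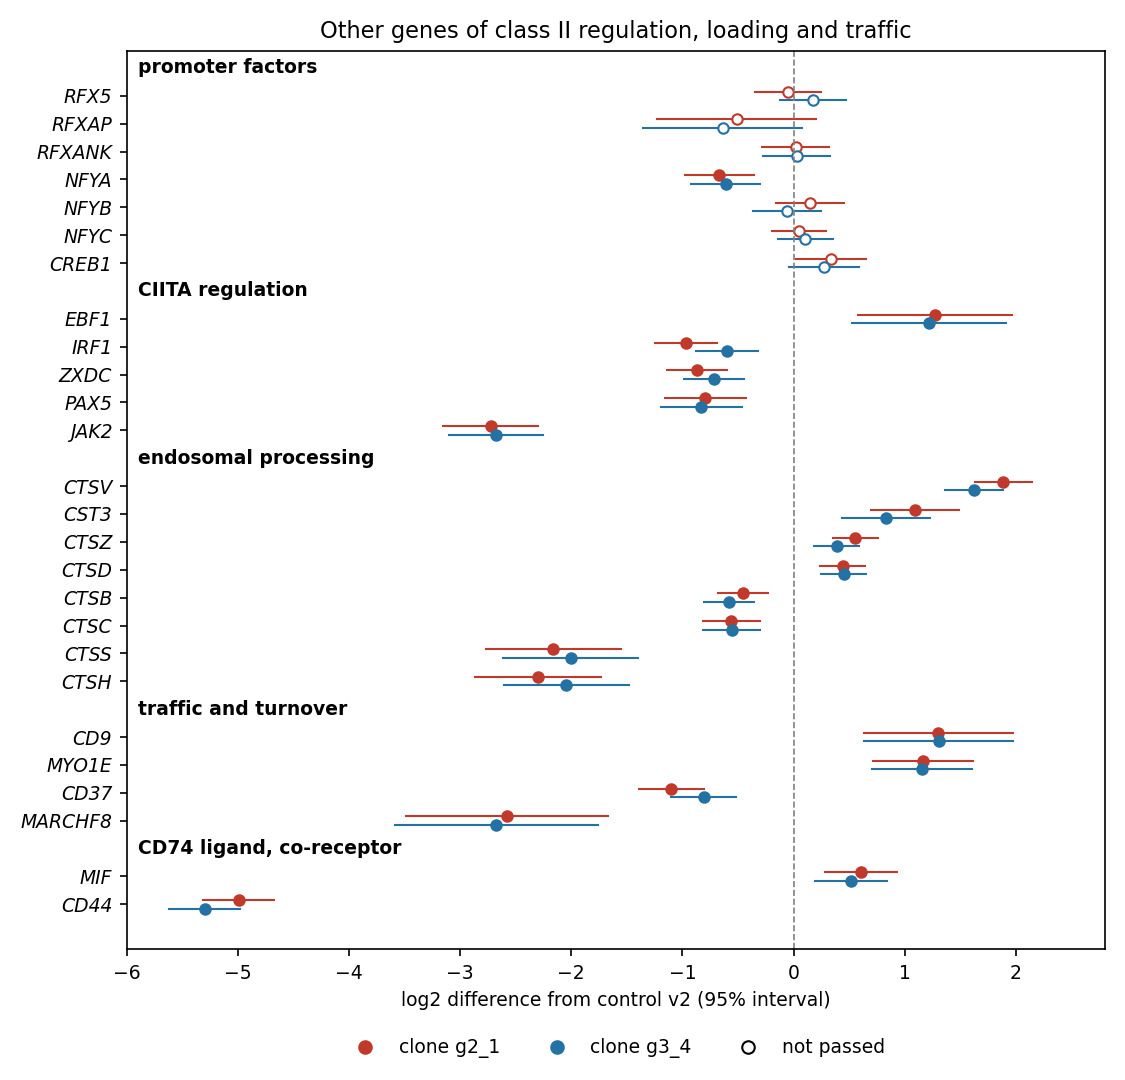
Log2 difference from control v2 with 95% intervals for genes of class II regulation, loading and traffic, with clone g2_1 in red above clone g3_4 in blue and open points where the adjusted p was 0.05 or more. The 7 promoter factors are all shown. CIITA regulation, processing, traffic and CD74 partners are shown by up to 4 risen and 4 fallen genes called in both clones. FBXO11 and RAB7A, also lower in both, are therefore left out, as are genes called in 1 clone. The lists of T cell contact, interferon gamma targets and neighbours are not drawn. CD44 is the furthest left and CTSV the furthest right.

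Genes that cut CD74 and prepare peptides went both ways. Of 19 measured genes of endosomal processing, 4 rose and 5 fell in both clones. CTSS, a protease known to cut CD74 in B cells and dendritic cells, was at 4.73, 4.65 and 4.88 in g2_1, at 4.97, 4.82 and 4.93 in g3_4, and at 7.75, 6.49 and 6.50 in control cells. The clones lay near the first quartile of all values, and control array 1 stood above the other controls. CTSS was lower (-2.16 in g2_1 and -2.01 in g3_4), and CTSH, an aminopeptidase, was lower (-2.30 in g2_1 and -2.04 in g3_4). The CTSH means of 4.24 in g2_1 and 4.5 in g3_4 lay under that quartile, so the differences of CTSS and CTSH are limited by the floor of the array. CTSV, a protease close to cathepsin L, was at 8.82, 8.89 and 8.75 in g2_1, at 8.70, 8.44 and 8.53 in g3_4, and at 7.14, 6.87 and 6.79 in control cells, and rose by 1.89 in g2_1 and by 1.62 in g3_4. The cathepsin inhibitor CST3 rose by 1.09 in g2_1 and by 0.83 in g3_4. CTSD rose by 0.44 in g2_1 and 0.45 in g3_4 and CTSZ by 0.56 and 0.39, while CTSC fell by 0.56 in each clone and CTSB was lower (-0.45 in g2_1 and -0.58 in g3_4). The call of CTSB in g2_1 was lost without g2_1 array 2 (adjusted p = 0.058), and that of CTSZ in g3_4 without g3_4 array 1 or 3 (adjusted p up to 0.073).

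Of 12 measured genes of class II traffic and turnover, 2 rose and 2 fell in both clones. MARCHF8, a ubiquitin ligase of the family that tags class II molecules and other membrane proteins, was at 4.38, 4.58 and 4.16 in g2_1, at 4.25, 4.40 and 4.18 in g3_4, and at 8.24, 6.36 and 6.25 in control cells. It was lower (-2.58 in g2_1 and -2.67 in g3_4), with the clones at the floor and control array 1 above the other controls. The tetraspanin genes CD9 and CD37, whose products lie beside class II molecules in the membrane, differed in direction. CD9 rose by 1.30 in g2_1 and 1.31 in g3_4, and CD37 was lower (-1.10 in g2_1 and -0.81 in g3_4). Control array 1 stood low for CD9, at 7.83 against 9.2 and 9.28 on the other controls. The calls of CD9 were lost in g2_1 without g2_1 array 3 (adjusted p = 0.056) and in g3_4 without g3_4 array 2 (adjusted p = 0.058). MYO1E, a motor protein, rose by 1.16 in each clone.

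CD74 at the cell surface is also a receptor for the cytokine MIF and signals with CD44. CD44 was at 5.51, 5.52 and 5.43 in g2_1, at 5.30, 5.33 and 4.91 in g3_4, and at 10.76, 10.33 and 10.35 in control cells. It was lower (-4.99 in g2_1 and -5.30 in g3_4). MIF rose by 0.61 in g2_1 (adjusted p = 0.0188) and by 0.52 in g3_4 (adjusted p = 0.0402). The call in g2_1 was lost without g2_1 array 1 or 2 or control array 2 or 3, and the call in g3_4 without any of its own arrays, g2_1 array 2 or control array 2 or 3 (adjusted p up to 0.140). These were the 2 of 6 genes on this list that passed in both clones.

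Of 13 genes of T cell contact and costimulation, on either cell, 2 rose and 5 fell in both clones. The costimulatory gene CD40 was lower (-4.70 in g2_1 and -4.85 in g3_4), and CD80, likewise costimulatory, had differences of -3.62 in g2_1 and -3.75 in g3_4. CD40 averaged 5.0 in g2_1 and 4.85 in g3_4, near the first quartile of 4.63, so the floor limits the size of its difference. Control array 1 stood high for CD40, at 10.53 against 9.22 and 9.36 on the other controls. LGALS9, a galectin, was lower (-3.61 in g2_1 and -3.88 in g3_4), and PDCD1LG2, a ligand of PD-1, was lower (-3.19 in g2_1 and -3.47 in g3_4). CD4, the coreceptor that binds class II molecules, rose by 1.08 in g2_1 and by 0.99 in g3_4, and CD83, which hinders the ubiquitination of class II molecules, rose by 0.56 in g2_1 and by 0.52 in g3_4. The call of CD83 was lost in g2_1 without g2_1 array 2 or 3 or control array 2, and in g3_4 without g3_4 array 3 or control array 2 or 3 (adjusted p up to 0.086).

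Of 19 measured targets of interferon gamma, the best known inducer of CIITA, 1 rose and 7 fell in both clones. CXCL10, a chemokine, was lower (-5.40 in g2_1 and -5.32 in g3_4), and GBP5, a GTPase, was lower (-3.18 in g2_1 and -3.33 in g3_4). CXCL10 averaged 4.53 in g2_1 and 4.61 in g3_4, and GBP5 averaged 4.64 in g2_1 and 4.49 in g3_4, about the first quartile of 4.63, so the floor limits the size of these differences too. CD274, the other PD-1 ligand, was lower (-2.03 in g2_1 and -2.36 in g3_4). PSMB9, an immunoproteasome subunit, was lower (-0.80 in g2_1 and -0.85 in g3_4). GBP2, another GTPase, rose by 1.12 in g2_1 and by 1.05 in g3_4, and the call in g3_4 was lost without any 1 of the g3_4 arrays (adjusted p up to 0.059). Its control arrays were spread, at 9.59, 10.36 and 10.94.

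Genes beside the class II genes on chromosome 6 were measured in 20 cases, of which 0 rose and 6 fell in both clones. VPS52 was lower (-0.74 in g2_1 and -0.77 in g3_4), TAP1, a subunit of the class I peptide transporter, was lower (-0.76 in g2_1 and -0.65 in g3_4), and SLC39A7, a zinc transporter, was lower (-0.60 in g2_1 and -0.65 in g3_4). TAP1 lost its call in g3_4 without g3_4 array 1 or 2 (adjusted p up to 0.069), and SLC39A7 in g2_1 without any 1 of the g2_1 arrays (adjusted p up to 0.092) and in g3_4 without g3_4 array 2 or 3 (adjusted p up to 0.052). The median over the 20 neighbours was -0.32 in g2_1 and -0.27 in g3_4, where the 9 genes of the set had -0.84 and -0.10. None of the genes on the lists of regulation, processing, traffic, CD74 partners, T cell contact, interferon gamma targets and neighbours passed between the clones without the block. In that fit 0 of the 9 genes of the set passed either, beside 0.0526% of all rows. The fit with the block is not reported for these lists, so the 2 cannot be compared there.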

How the data were processed

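The 9 arrays were described by the labels as 3 each of clone g2_1, clone g3_4 and control v2. The deposited values are log2 signals with 2 decimals and no detection flags. Per the submitters' processing notes, RMA and Transcriptome Analysis Console 4.0 were used. RMA brings the arrays to a common distribution, so a shift shared by most genes could be lost, and it narrows differences near the floor. The genome build of the array annotation is not given in the sources used here. Of 21448 rows, 555 unmapped ones were left out. Of the 20893 tested, 17705 had 1 gene symbol, 0 had several and 3188 had none here. Precision is limited by the number of arrays.

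limma 3.58.1 in R 4.3.3 (lmFit, eBayes) was fitted to all rows and all 9 arrays, with 1 coefficient for each group, two-sided, with Benjamini-Hochberg adjustment over all rows. A gene passed at an adjusted p under 0.05. The test was tried on simulated data. Deviations from group means correlated between same-numbered arrays of the clones at 0.435, 0.191 and 0.310, so the number was treated as pairing the clones. They did so with control at 0.285, 0.0426 and 0.183 (g2_1) and at 0.298, 0.0565 and 0.257 (g3_4). These values partly overlap those between the clones, so they do not settle whether the control should be paired too. The main fit left it unpaired, while the block fit held all 3 groups.

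The set, the gene lists and the rule for named genes were chosen with earlier results of these data known. The rule named all genes of the set, other class II genes and promoter factors, up to 4 risen and 4 fallen genes of each other list, and the 3 nearest patterns.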

Additional observations from a re-analysis of the deposited data

Results flagged for a closer look

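Between the clones, 3 genes differed in the limma fit with the array number as a block. HLA-DRB1 was lower in g2_1 than in g3_4 by a log2 difference of -1.20 (adjusted p = 0.0042), with g2_1 arrays at 8.36, 9.40 and 9.55 against g3_4 arrays at 9.86, 10.49 and 10.55. HLA-DRA differed by -0.72 (adjusted p = 0.0456) and CD74 by -0.70 (adjusted p = 0.0337). Each was lower in g2_1 on 3 of 3 array numbers. Without the block none of them passed, with adjusted p of 0.556, 0.752 and 0.328 in the order given. No technical or biological source of the difference was tested.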

How the results depend on the processing

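The g2_1 differences from control of HLA-DQA1 (-1.78 to -1.16), HLA-DPA1 (-0.60 to -0.45), HLA-DOB (-1.0 to -0.77) and CD74 (-0.93 to -0.69) passed in all 19 alternatives, as did HLA-DOA in g3_4. Single arrays decided other calls. Leaving out 1 array gave 4 to 7 called genes of the set in g2_1 against control (7 with all arrays), 1 to 2 in g3_4 (2) and 2 to 5 in the clones averaged (5). Over all rows it gave 2078 to 3118, 2119 to 3148 and 3116 to 3729 calls, and 4 to 45 between the clones (11). Between the clones, all rows called were 27 with the replicate block, 32 with only the groups compared, 66 with both, 50 with array weights and 29 with the arrays numbered 1 left out. Called genes of the set there were 3 with the block, 5 with the block and only the groups compared (added after seeing the data), and 1 with the arrays numbered 1 left out (HLA-DRB1, -1.04, adjusted p = 0.012). The cause was not tested. Against control the number was not treated as a pairing in the main fit. With the block, CIITA in g2_1 (adjusted p = 0.0142) and HLA-DQA1 in g3_4 (adjusted p = 0.0105) passed against control. So did HLA-DRA (adjusted p = 0.0016) and HLA-DRB1 (adjusted p = 0.0057) in the clones averaged. With array weights HLA-DRA in the clones averaged passed (adjusted p = 0.038). Centring each array on its median moved the median of all rows against control by 0.11, left 3 called genes in the clones averaged, and lost HLA-DRB1 in g2_1 (-0.98, adjusted p = 0.0588). Signs changed only among differences that were never called. Leaving out 1 array gave -0.18 to 0.29 for CIITA in g3_4 (-0.05 without g3_4 array 2 or control array 1, -0.02 without control array 3), -0.17 to 0.33 for HLA-DRB1 in g3_4 (-0.02 without g3_4 array 3), and -0.082 to 0.083 for HLA-DMA in the clones averaged (0.0067 without g2_1 array 1, 0.019 without g3_4 array 1). HLA-DPA1 in g3_4 was at 0.0067 after centring. HLA-DMA in the clones averaged was at 0.09 after centring. The alternative for genes with several rows was not run, since each gene had 1. Without detection flags, signal over background is unknown.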
